A study of Mus musculus with 12 samples.

Results

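TGF-beta and BMP signaling genes of epididymal white adipose tissue (eWAT) were followed across 4 environmental temperatures. Members were taken by symbol: the numbered Bmp and Gdf genes, the Bmpr, Tgfb, Tgfbr, Inhb, Acvr, and Smad genes, and Nog, Grem1, Fst, Fstl1, and Fstl3. The symbols gave 48 of the 14860 genes measured, each read by a single probe set. The names also took in Bmp1 and Bmp2k, which encode a protease and a kinase. The tissue came from male C57BL/6J mice that were 7 to 8 weeks old at purchase and were kept at 22°C before grouping, and its RNA was hybridized to Affymetrix Mouse Exon 1.0 ST arrays (12 arrays, 3 in each group). The control group lived at 30°C, the thermoneutral temperature of mice. All cold groups spent 1 week at 18°C and 1 week at 4°C, and the 4°C group then stayed there. The other groups were adapted stepwise, with cold days of –5°C and then –10°C and nights at 4°C, and spent the last 3 weeks at –10°C, or at –20°C on days and –10°C on nights. The labels count 5 weeks of exposure and shorten the coldest group, here –10°C/–20°C, to –20°C. Mice, litters, and hybridization days are not named, and the p-values therefore reflect only how far these arrays spread.

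Ligands of this family are secreted factors that bring type I and type II receptor kinases together, and the type I receptor then phosphorylates Smad proteins. TGF-beta and activin signal through Smad2 and Smad3, most BMPs signal through Smad1, Smad5, and Smad9, and both branches share Smad4, whereas Smad6 and Smad7 restrain them. In adipose tissue, TGF-beta is known for matrix production by stromal cells and for restraining adipocyte differentiation, and several BMPs are known for committing progenitors to white or brown adipocytes. Follistatin, noggin, and gremlin bind ligands outside the cell and keep them from their receptors.

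Values are log2 signals as deposited, and 1 unit is a doubling. Background was set at 4.52, below which lay the means of 95% of 718 olfactory receptor genes, and 34 members were above it on all 12 arrays, 7 on some arrays, and 7 on none. The members never above background were the ligands Bmp10, Bmp15, Gdf2, Gdf3, and Gdf9, the activin chain Inhbc, and the antagonist Nog. The median signal of an array was 5.19 to 5.44, and each array read 10210 to 10541 genes above background. Adipocyte markers were far above background on every array, with a mean over 6 genes of 11.2 to 11.6, and of 5 measured genes of epididymis and testis, 4 stayed under background on all arrays of a group with 30°C, 4°C, and –10°C/–20°C, and 3 with –10°C. In a supplementary table of the study, 2 arrays with 30°C and 2 with 4°C are named in another way than the remaining 8, and what this name form stands for is not known here. Those 8 hold 1 array with 30°C, 1 with 4°C, and all 6 of the coldest groups. Beside each call between 2 groups given below that did not pass with the name form as a block, that value is printed. This was not done for F-tests, markers of cell types, or the genes of the closing paragraph.

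Members of the family were lower, not higher, in cold-exposed eWAT wherever a difference from 30°C passed the test, and the number of fallen members was highest with –10°C/–20°C. With 4°C, 2 of 48 members fell, against 0.942% of all genes that fell (3.04% that changed in either direction). With –10°C, 4 members fell, against 3.03% of all genes (8.34% in either direction). With –10°C/–20°C, 12 members fell and none rose, 25.0% of the members against 11.0% of all genes that fell (18.2% in either direction). A gene was called at an adjusted p under 0.05 from limma, with Benjamini-Hochberg adjustment over all 14860 genes (n = 3 arrays per group). The median log2 difference of the members was −0.04 in the 4°C group, −0.09 in the –10°C group, and −0.16 in the coldest group, beside 0.01, 0.03, and −0.03 for all genes. These comparisons share the 3 arrays with 30°C. Scaling bears on the coldest group. After centring of the arrays on their medians, the median of all genes with –10°C/–20°C moved to 0.13 and that of the members to −0.01. Then 8 members fell, beside 1004 of 14860 genes. With the name form as a block, 7 members fell, beside 1030 of 14860 genes. The 8 arrays alone held 30°C replicate 3 as the only control. Of the 12 fallen members, those that did not pass among the 8 arrays were Tgfb1 (adjusted p = 0.0543), Bmp1 (adjusted p = 0.0786), Fstl3 (adjusted p = 0.114), Acvrl1 (adjusted p = 0.134), and Gdf10 (adjusted p = 0.199). Of the calls with 4°C none passed in either subset, and with –10°C Bmp2 alone passed among the 8. With arrayWeights, Acvr1b was called higher with 4°C (0.42, adjusted p = 0.0303).

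**Figure D1:**
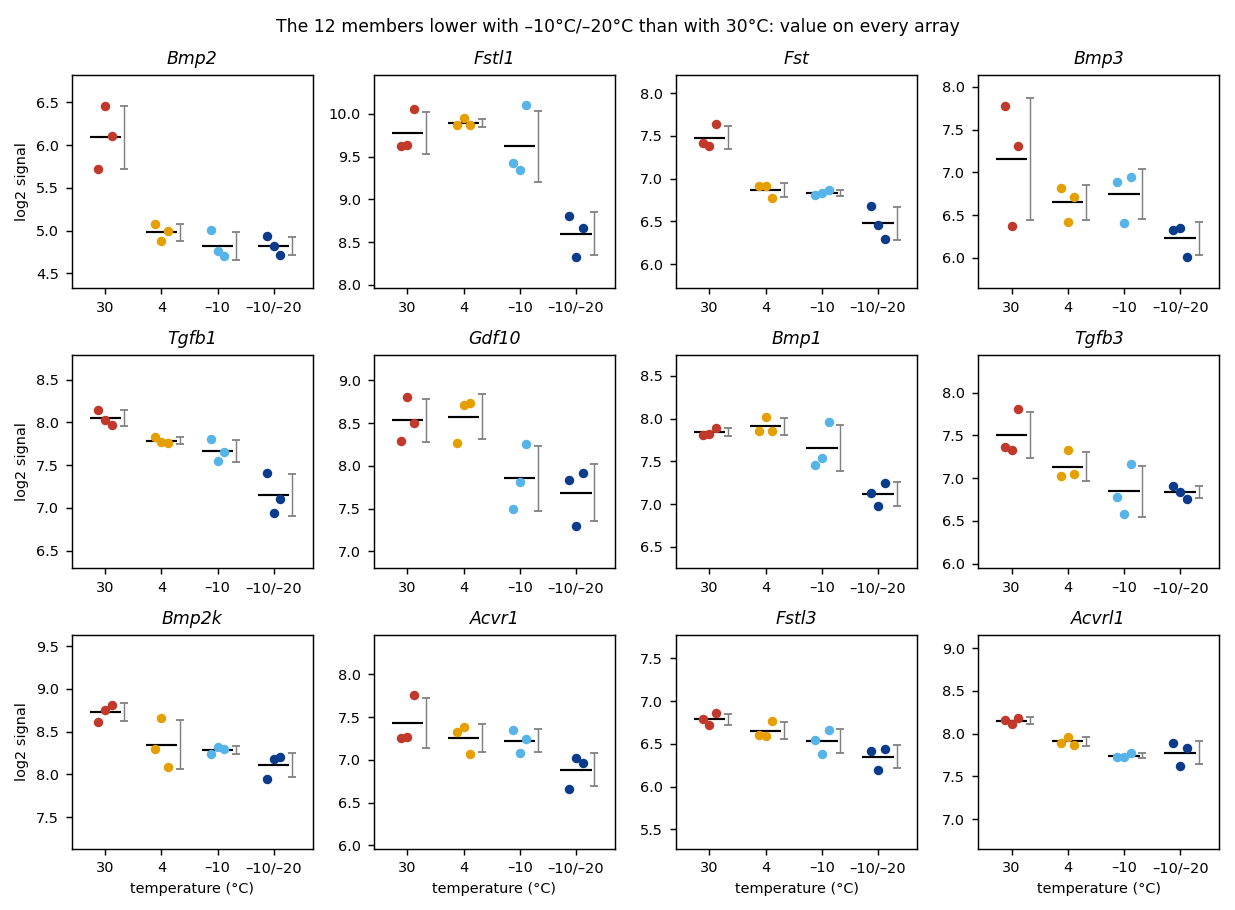
Log2 signal (vertical axis) of the 12 members that fell with –10°C/–20°C, by temperature in °C (horizontal axis). Points are arrays, black lines are group means, grey bars are 1 SD (n = 3), and each panel spans the same range of log2 units. Bmp2 lay between 4.70 and 5.08 on all 9 cold arrays and between 5.72 and 6.45 with 30°C, whereas Fstl1 and Bmp1 were low with –10°C/–20°C.

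Among the TGF-beta ligands, Tgfb1 and Tgfb3 fell with –10°C/–20°C and Tgfb2 did not pass the test. Tgfb1 encodes the most widely made form, which immune and stromal cells secrete in a latent complex. Its arrays read 8.15, 8.03, and 7.97 with 30°C, 7.83, 7.77, and 7.76 with 4°C, 7.81, 7.55, and 7.65 with –10°C, and 7.41, 6.94, and 7.10 with –10°C/–20°C. Every array with –10°C/–20°C was below all 9 others, and every cold array was below those of 30°C. The log2 difference from 30°C was −0.26 with 4°C (adjusted p = 0.375), −0.38 with –10°C (adjusted p = 0.0864), and −0.90 with –10°C/–20°C (SE 0.12, adjusted p = 0.000462), a 1.86-fold decrease. Tgfb1 was also lower with –10°C/–20°C than with 4°C, by −0.64 (adjusted p = 0.00735), and than with –10°C, by −0.52 (adjusted p = 0.0274). The difference with –10°C passed in 3 of 22 alternatives (adjusted p = 0.0155 to 0.0367). Neither call between cold groups passed under median centring (adjusted p = 0.105 and 0.267), the first did not pass with the name form as a block (adjusted p = 0.0617), and the second was lost when –10°C replicate 1 or 3 or –10°C/–20°C replicate 2 or 3 was left out (adjusted p = 0.119, 0.0785, 0.105, and 0.0883).

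Tgfb3, a ligand with the same receptors, read 7.37, 7.33, and 7.81 with 30°C, 7.02, 7.33, and 7.05 with 4°C, 6.78, 6.58, and 7.17 with –10°C, and 6.91, 6.84, and 6.76 with –10°C/–20°C. The arrays of both coldest groups were below those of 30°C and overlapped each other. The log2 difference was −0.66 with –10°C (SE 0.17, adjusted p = 0.0328) and −0.67 with –10°C/–20°C (SE 0.17, adjusted p = 0.0167). The first call did not pass without 30°C replicate 1 or 3 (adjusted p = 0.0589 and 0.0886) or without –10°C replicate 1 or 2 (adjusted p = 0.106 and 0.129) or with the name form as a block (adjusted p = 0.0946), and the second did not pass without 30°C replicate 3 or –10°C/–20°C replicate 3 (adjusted p = 0.0608 for each). Tgfb2, the third ligand, differed by −0.31 with –10°C/–20°C (95% interval −0.74 to 0.13, adjusted p = 0.372).

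Of the 16 BMP and GDF ligands, 3 fell with –10°C/–20°C, Bmp2, Gdf10, and Bmp3, and 13 did not pass the test, beside 11.0% of all genes that fell (18.2% in either direction). Bmp2, a ligand that directs mesenchymal progenitors, had the largest decrease of all members with –10°C/–20°C. It read 5.72, 6.45, and 6.10 with 30°C, 5.08, 4.88, and 4.99 with 4°C, 5.01, 4.76, and 4.70 with –10°C, and 4.93, 4.82, and 4.72 with –10°C/–20°C. All 9 cold arrays were below all 3 of 30°C, the cold groups overlapped each other, and the cold values lay close to background. Bmp2 was 2.16-fold lower with 4°C (log2 difference −1.11, SE 0.16, adjusted p = 0.00566), 2.41-fold lower with –10°C (−1.27, adjusted p = 0.00144), and 2.41-fold lower with –10°C/–20°C (−1.27, adjusted p = 0.000337). Between –10°C/–20°C and 4°C it differed by −0.16 (95% interval −0.52 to 0.20). Among the 4 arrays of the other name form the difference with 4°C did not pass, nor did it among the 8.

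Gdf10, a ligand close to Bmp3 in sequence, followed another order. Its arrays read 8.29, 8.80, and 8.50 with 30°C, 8.27, 8.72, and 8.74 with 4°C, 7.49, 7.82, and 8.25 with –10°C, and 7.84, 7.30, and 7.92 with –10°C/–20°C. The groups with 30°C and 4°C overlapped, and both colder groups lay below them. The log2 difference from 30°C was 0.04 with 4°C, −0.68 with –10°C (adjusted p = 0.102), and −0.85 with –10°C/–20°C (SE 0.23, adjusted p = 0.0238). The call with –10°C/–20°C was lost without 30°C replicate 2 or 3 (adjusted p = 0.0935 and 0.0564), without –10°C/–20°C replicate 2 (adjusted p = 0.0975), and with the name form as a block (adjusted p = 0.079).

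Bmp3, which restrains the bone-forming BMPs, read 7.78, 6.37, and 7.31 with 30°C, 6.81, 6.42, and 6.71 with 4°C, 6.89, 6.41, and 6.95 with –10°C, and 6.33, 6.35, and 6.01 with –10°C/–20°C. Replicate 2 of 30°C lay close to the coldest arrays, and the other arrays of 30°C were well above them. The difference of −0.93 (SE 0.29) only just passed (adjusted p = 0.0495) and was called in 5 of 22 alternatives. Without 30°C replicate 1 it was −0.61 (adjusted p = 0.167), and with the name form as a block −1.03 (adjusted p = 0.118).

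Bmp4, a ligand that commits progenitors to the adipocyte lineage, differed by −0.48 with –10°C/–20°C (95% interval −1.10 to 0.15, adjusted p = 0.32). Bmp7, known for promoting brown adipocytes, varied widely within groups, from 5.89 to 6.95 with 30°C, 5.86 to 7.60 with 4°C, 5.62 to 7.11 with –10°C, and 5.50 to 5.99 with –10°C/–20°C, and its difference of −0.66 in the coldest group had a 95% interval of −1.70 to 0.38. Bmp8b, which acts on brown fat thermogenesis, was near background, and its differences from 30°C were 0.10, −0.06, and 0.03. Bmp5 differed by −0.39 (adjusted p = 0.19) and was above background on 5 arrays, and without 30°C replicate 1 its difference was −0.60 (adjusted p = 0.0218). Bmp8a, Gdf5, Gdf6, and Gdf7 differed from 30°C by 0.12 at most in size in any cold group. The activin chain Inhba, a subunit of activin A, also varied widely, from 5.51 to 7.24 within the –10°C group alone, and no activin or inhibin chain passed the test.

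Of the 5 antagonists and follistatin-like members, Fst, Fstl1, and Fstl3 fell with –10°C/–20°C, and Grem1 and Nog did not pass the test, beside 11.0% of all genes that fell. Fst encodes follistatin, which binds activin almost irreversibly. Its arrays read 7.42, 7.38, and 7.64 with 30°C, 6.91, 6.91, and 6.77 with 4°C, 6.80, 6.83, and 6.87 with –10°C, and 6.68, 6.45, and 6.29 with –10°C/–20°C. Every cold array was below those of 30°C, and those of –10°C/–20°C were below all others. The log2 difference from 30°C was −0.61 with 4°C (SE 0.11, adjusted p = 0.0141), −0.65 with –10°C (adjusted p = 0.00481), and −1.0 with –10°C/–20°C (adjusted p = 0.000137), a 2.01-fold decrease. The last of these passed in 22 of 22 alternatives, and that with 4°C did not pass without 4°C replicate 1 or 3 (adjusted p = 0.0556 and 0.0606). Between –10°C/–20°C and 4°C the difference was −0.39 (adjusted p = 0.0468), which passed in 5 of 22 alternatives and not with the name form as a block (adjusted p = 0.133).

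Fstl1, a secreted glycoprotein of mesenchymal cells, read 9.63, 9.63, and 10.06 with 30°C, 9.87, 9.95, and 9.87 with 4°C, 9.42, 9.34, and 10.10 with –10°C, and 8.81, 8.32, and 8.66 with –10°C/–20°C. The 3 warmer groups overlapped, and the coldest group was below all of them. Its log2 difference from 30°C was 0.12 in the 4°C group, −0.15 in the –10°C group, and −1.18 in the coldest group (SE 0.20, adjusted p = 0.00192), a 2.26-fold decrease. Fstl1 was lower by −1.02 than with –10°C (adjusted p = 0.0132), which did not pass without –10°C/–20°C replicate 2 (adjusted p = 0.0611), and by −1.30 than with 4°C (adjusted p = 0.0027). Fstl3, which also binds activin, read 6.79, 6.73, and 6.86 with 30°C, 6.61, 6.59, and 6.77 with 4°C, 6.54, 6.38, and 6.66 with –10°C, and 6.42, 6.20, and 6.44 with –10°C/–20°C. The arrays of both coldest groups were below those of 30°C, and those of 4°C overlapped them. Of its differences from 30°C, that of the coldest group passed (−0.44, SE 0.10, adjusted p = 0.0113), and it did not pass with repeated quantile normalization (adjusted p = 0.122) or median centring (adjusted p = 0.177). Grem1, the BMP antagonist gremlin, differed by −0.34 in the coldest group (95% interval −1.40 to 0.71), and Nog, the antagonist noggin, was below background on every array.

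Both members outside the ligand and receptor families fell with –10°C/–20°C. Bmp1 encodes a secreted protease that trims procollagens and cleaves the BMP antagonist chordin. It read 7.81, 7.82, and 7.89 with 30°C, 7.85, 8.02, and 7.86 with 4°C, 7.46, 7.54, and 7.96 with –10°C, and 7.13, 6.97, and 7.25 with –10°C/–20°C. As for Fstl1, only the coldest group lay apart, below all 9 other arrays. Its difference was −0.72 from 30°C (SE 0.13, adjusted p = 0.0026), −0.79 from 4°C (adjusted p = 0.00354), and −0.54 from –10°C (adjusted p = 0.0324). The first of these passed in 22 of 22 alternatives but not among the 8 arrays (adjusted p = 0.0786), whereas the last passed in 13 and was lost without –10°C replicate 3 (adjusted p = 0.0919), 4°C replicate 1, or any 1 of the –10°C/–20°C arrays (adjusted p = 0.0513 to 0.129). Bmp2k, a kinase named for its induction by BMP2, read 8.62, 8.75, and 8.82 with 30°C, 8.30, 8.66, and 8.09 with 4°C, 8.23, 8.32, and 8.29 with –10°C, and 7.95, 8.18, and 8.20 with –10°C/–20°C. Both colder groups were below 30°C on every array, and the difference was −0.62 in the coldest (SE 0.13, adjusted p = 0.00789, and 0.0741 with the name form as a block).

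The sequences upstream of the 3 fallen members with the largest decreases among those with a promoter entry are shown because these members fell in the same group. They are the 250 bases before the RefSeq start in GRCm38.p6, written 5′ to 3′ along the gene, at chr16:37776805-37777054 (+ strand), chr7:25686752-25687001 (+ strand), and chr14:33923337-33923586 (+ strand). Capitals mark GC boxes, GGGCGG on either strand, so that CCGCCC is a match on the opposite strand, and matches may overlap.
Fstl1: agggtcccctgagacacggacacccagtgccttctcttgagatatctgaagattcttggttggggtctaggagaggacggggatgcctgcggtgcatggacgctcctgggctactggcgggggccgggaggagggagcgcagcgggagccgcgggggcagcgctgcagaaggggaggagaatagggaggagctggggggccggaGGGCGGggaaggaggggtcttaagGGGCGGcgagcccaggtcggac
Tgfb1: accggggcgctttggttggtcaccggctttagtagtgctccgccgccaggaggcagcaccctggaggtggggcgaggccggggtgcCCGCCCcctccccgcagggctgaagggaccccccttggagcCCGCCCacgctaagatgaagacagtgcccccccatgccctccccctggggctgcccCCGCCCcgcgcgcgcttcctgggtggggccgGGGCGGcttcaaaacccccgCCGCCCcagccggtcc
Gdf10: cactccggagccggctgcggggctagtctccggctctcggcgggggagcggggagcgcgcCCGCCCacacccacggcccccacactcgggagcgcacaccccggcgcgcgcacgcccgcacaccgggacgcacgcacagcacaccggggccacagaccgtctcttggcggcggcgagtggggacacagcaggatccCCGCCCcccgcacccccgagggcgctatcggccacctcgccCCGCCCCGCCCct
GC content was 68.0% for Fstl1, 75.2% for Tgfb1, and 78.8% for Gdf10, with 2, 5, and 4 GC boxes. Of 48 members, 32 had such an entry, and a GC box was present in 6 of 6 fallen members, 16 of 26 other members, and 32.7% of 32851 windows of the same length. The Smad element CAGAC was in 2 of 6, 13 of 26, and 42.2%, and GGCGCC, an element bound by BMP Smads, in 1 of 6, 6 of 26, and 9.59%. The cAMP response element TGACGTCA and the AP-1 site TGAGTCA were in no member window, and in 1.55% and 4.46% of all windows. A match is a run of letters and was not tested for binding.

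Of the 11 receptors and co-receptors, 2 type I receptors fell with –10°C/–20°C, Acvrl1 and Acvr1, beside 11.0% of all genes that fell (18.2% in either direction). No type II receptor passed the test in any comparison with 30°C. Acvrl1 is a receptor of endothelial cells for the ligands Gdf2 and Bmp10. It read 8.16, 8.11, and 8.19 with 30°C, 7.89, 7.96, and 7.87 with 4°C, 7.73, 7.72, and 7.77 with –10°C, and 7.89, 7.63, and 7.83 with –10°C/–20°C. All cold arrays were below those of 30°C, and the 2 coldest groups overlapped. The differences were small, −0.24 with 4°C (adjusted p = 0.18), −0.41 with –10°C (SE 0.08, adjusted p = 0.0117), and −0.37 with –10°C/–20°C (SE 0.08, adjusted p = 0.00941). With the name form as a block the last 2 did not pass (adjusted p = 0.0874 and 0.0554), and under median centring the last was −0.22 (adjusted p = 0.197). Over the 8 endothelial markers, the mean on single arrays was 8.59 to 8.72 with 30°C and 8.52 to 8.62 with –10°C/–20°C, with Kdr higher, Cldn5 lower, and 6 not past the test.

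Acvr1, a type I receptor for BMPs, read 7.26, 7.26, and 7.77 with 30°C, 7.33, 7.38, and 7.07 with 4°C, 7.35, 7.08, and 7.24 with –10°C, and 6.66, 7.03, and 6.96 with –10°C/–20°C. The coldest arrays were below all others, and the difference from 30°C was −0.54 (SE 0.16, adjusted p = 0.0339). It was −0.37 without 30°C replicate 3 (adjusted p = 0.107), −0.43 without –10°C/–20°C replicate 1 (adjusted p = 0.111), and −0.58 without –10°C/–20°C replicate 3 (adjusted p = 0.0632). With the name form as a block it was −0.62 (adjusted p = 0.0806), and under median centring −0.39 (adjusted p = 0.0726). Acvr1b, the type I receptor of activin, differed among the 4 groups by the F-test (adjusted p = 0.0224) and fell between 4°C and –10°C/–20°C. It read 6.85, 7.04, and 7.45 with 30°C, 7.52, 7.64, and 7.20 with 4°C, 7.10, 7.08, and 7.04 with –10°C, and 6.50, 6.60, and 6.82 with –10°C/–20°C. The 30°C arrays overlapped those of 4°C, and the coldest arrays were below all others. Its difference between –10°C/–20°C and 4°C was −0.81 (SE 0.16, adjusted p = 0.00812), which did not pass among the 8 arrays (adjusted p = 0.157). That from 30°C, −0.47, did not pass (adjusted p = 0.0625), although it did in 5 of 22 alternatives (adjusted p = 0.0296 to 0.0492) and among the 8 arrays (−0.81, adjusted p = 0.0245).

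With –10°C/–20°C, the median log2 difference was −0.35 over the 6 type I receptors and 0.03 over the 4 type II receptors. Tgfbr2, the type II receptor of TGF-beta, had a log2 difference of 0.01 with –10°C/–20°C (95% interval −0.24 to 0.26). Bmpr2, a type II receptor of BMPs, differed by 0.04 (95% interval −0.19 to 0.27). Tgfbr1, the type I receptor of TGF-beta, was 0.49 higher with –10°C (adjusted p = 0.178) and 0.19 with –10°C/–20°C (adjusted p = 0.623), and its 3 arrays with –10°C, 7.0, 7.16, and 7.23, were above the 6.22, 6.86, and 6.82 of 30°C. Bmpr1a, a type I receptor of BMPs, differed by −0.33 in the coldest group (95% interval −0.69 to 0.04).

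Tgfbr3, or betaglycan, presents ligands to the signaling receptors and was the 1 member called higher in the 6 comparisons of the limma fit. It read 9.20, 9.25, and 9.57 with 30°C, 9.19, 9.25, and 9.36 with 4°C, 9.09, 8.91, and 9.16 with –10°C, and 9.58, 9.54, and 9.42 with –10°C/–20°C. The coldest arrays were above those of –10°C and overlapped those of 30°C. The difference from –10°C was 0.46 (SE 0.11, adjusted p = 0.035), and that from 30°C was 0.17 (95% interval −0.08 to 0.42, adjusted p = 0.384). The first was called in 13 of 22 alternatives and did not pass when 4°C replicate 1 or any 1 array of the 2 groups compared was left out (adjusted p = 0.0525 to 0.115).

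**Figure D2:**
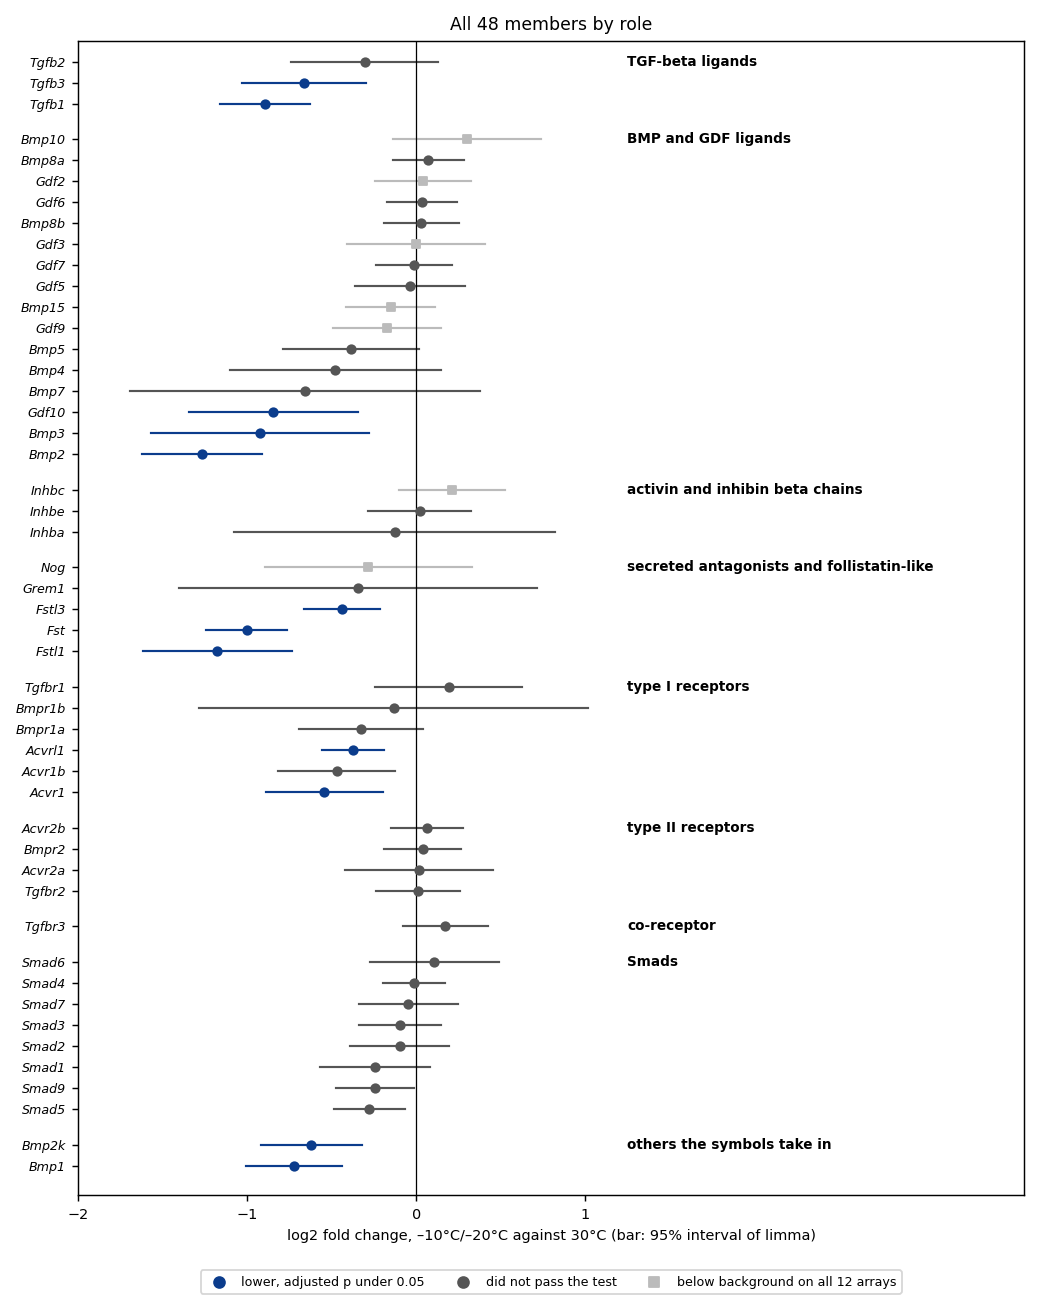
Log2 fold change with –10°C/–20°C against 30°C (horizontal axis) for all 48 members, grouped by role (vertical axis). Points are estimates and bars are 95% intervals from limma (n = 3 arrays per group). The 12 fallen members are in blue, members below background on all 12 arrays are grey squares, and every Smad lies between −0.28 and 0.11.

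None of the 8 Smads passed the limma test in any of the 6 comparisons. Of all genes, 18.2% passed in the coldest group against 30°C. At an unadjusted p under 0.05, there were 2 Smads in the coldest group against 30°C, 1 against –10°C, and 1 against 4°C. Of all 14860 genes there were 4288, 3076, and 3270. Their log2 differences from 30°C ran from −0.24 to 0.19 with 4°C, from −0.25 to 0.19 with –10°C, and from −0.28 to 0.11 with –10°C/–20°C. Smad4, the partner of all receptor-activated Smads, differed by −0.02 in the coldest group (95% interval −0.20 to 0.17). Smad2 and Smad3 of the TGF-beta branch both differed by −0.10, with 95% intervals of −0.39 to 0.20 and −0.34 to 0.15. In the BMP branch, Smad5 read 8.10, 8.30, and 8.33 with 30°C and 7.89, 8.06, and 7.94 with –10°C/–20°C, a difference of −0.28 (adjusted p = 0.0696) that passed with repeated quantile normalization (−0.26, adjusted p = 0.029), with the replicate number as a block (adjusted p = 0.0372), with arrayWeights, and without 30°C replicate 1 (−0.35, adjusted p = 0.0383). The differences of Smad1 and Smad9 were −0.24 each (adjusted p = 0.336 and 0.153). The inhibitory Smad6 and Smad7, which BMP and TGF-beta signals are known to induce, differed by 0.11 (95% interval −0.28 to 0.49) and −0.05 (95% interval −0.34 to 0.25). Smad9 passed without 30°C replicate 2 (−0.36, adjusted p = 0.0348), and Smad1 with 4°C and Smad4 with –10°C were called with arrayWeights. The median over the Smads was −0.10 with –10°C/–20°C, and 0.06 under median centring.

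**Figure D3:**
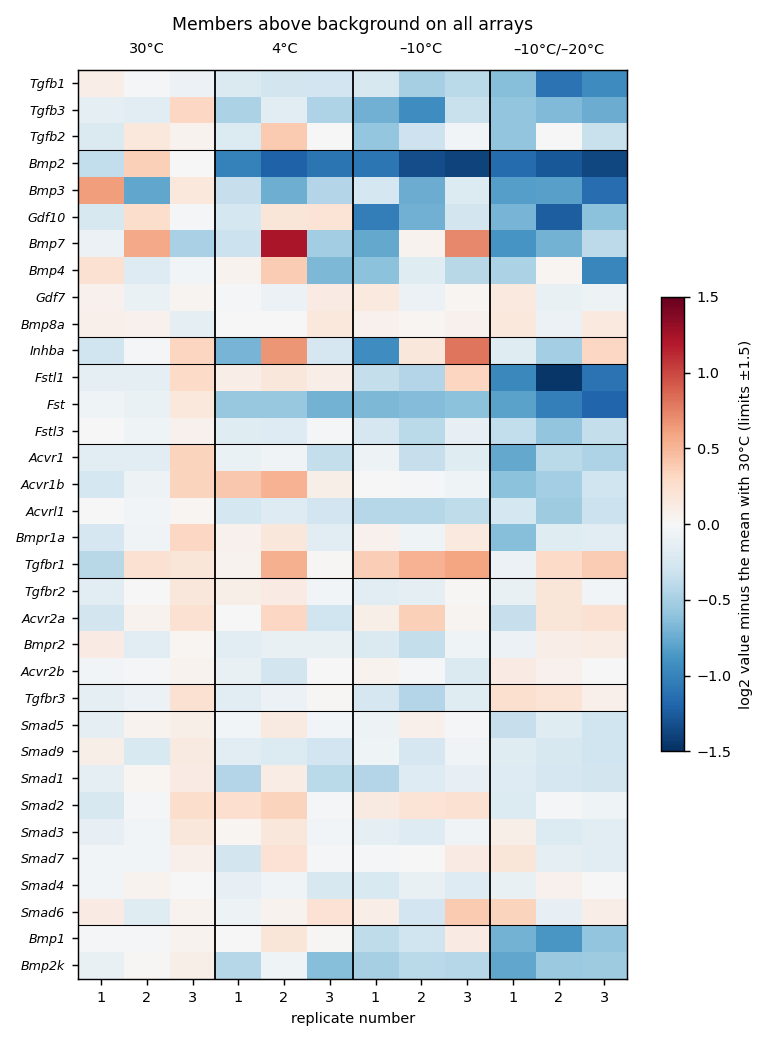
Log2 signal minus the mean with 30°C (colour, blue lower and red higher, limits ±1.5) for the 34 members above background on all arrays, in rows by role, and the 12 arrays in columns by group and replicate number. Bmp2 and Fst are blue on all 9 cold arrays, Fstl1 and Bmp1 on all 3 arrays with –10°C/–20°C, and the rows of Smads stay pale.

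Across the 4 temperatures, 11 of 48 members differed by the F-test, against 17.1% of all genes: Acvr1b, Acvrl1, Bmp1, Bmp2, Bmp2k, Fst, Fstl1, Fstl3, Gdf10, Tgfb1, and Tgfb3. Not all of these 11 held in the alternatives. With the name form as a block, 6 members differed by the F-test, beside 1501 of 14860 genes. When single arrays were left out, 6 to 10 members did. Group means fell at each step from 30°C to –10°C/–20°C for 8 members, against 11.2% of all genes, among them Tgfb1, Tgfb3, Fst, Fstl3, and Bmp2k, and rose at each step for 2, Smad6 and Inhbc, against 7.59%. Between –10°C and 4°C no member passed, against 0.0404% of all genes. At an unadjusted p under 0.05 in limma there were 3 of 48 (Acvr1b, Gdf10, and Gdf2), beside 1063 of 14860 genes. Gdf2 was below background on every array. Between –10°C/–20°C and –10°C, Bmp1, Fstl1, and Tgfb1 fell and Tgfbr3 rose, 4 members against 7.16% of all genes (5.14% that fell and 2.02% that rose). Between –10°C/–20°C and 4°C, 6 members fell, Acvr1b, Bmp1, Fst, Fstl1, Gdf10, and Tgfb1, against 9.77% of all genes that changed and 7.24% that fell. Of these, Fst, Gdf10, and Tgfb1 did not pass with the name form as a block (adjusted p = 0.133, 0.104, and 0.0617). On all 3 arrays with –10°C/–20°C, 15 of 48 members were below every array of 30°C, against 18.9% of all genes.

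Markers of some other cell types were also lower with –10°C/–20°C, and those of others were not. Of the 7 macrophage markers measured, 6 fell with –10°C/–20°C, and their mean on single arrays was 8.39 to 8.67 with 30°C, 8.08 to 8.09 with 4°C, 7.67 to 7.88 with –10°C, and 7.21 to 7.66 with –10°C/–20°C. Of the 8 markers of stromal progenitors, Lum and Fbln1 fell, and their mean was 8.30 to 8.52 with 30°C, 8.27 to 8.52 with 4°C, 8.12 to 8.61 with –10°C, and 7.80 to 7.93 with –10°C/–20°C. The mean of the mast cell markers was 5.64 to 6.06 with 30°C, 5.07 to 5.59 with 4°C, 5.15 to 5.49 with –10°C, and 4.37 to 5.25 with –10°C/–20°C, and that of the lymphocyte markers 5.62 to 6.24, 5.17 to 6.21, 4.67 to 6.04, and 4.68 to 5.11. Macrophage and mast cell means were below those of 30°C on every cold array, as Bmp2, Fst, Tgfb1, and Acvrl1 were, although 1 of the 7 macrophage markers passed the test with 4°C. Stromal and lymphocyte means were below those of 30°C on every array in the coldest group alone, as Fstl1 was. With –10°C/–20°C, mast cell markers fell for 4 of 5 genes, lymphocyte markers for 2 of 6, and mesothelial markers for 1 of 6, beside 11.0% of all genes. Of 6 adipocyte markers none fell and Pparg rose. Of 8 endothelial markers 1 rose and 1 fell, and none of 3 skeletal muscle markers passed. In bulk tissue, fewer cells of a type and less RNA per cell cannot be told apart, and the part of these cells in the decreases was not tested.

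**Figure D4:**
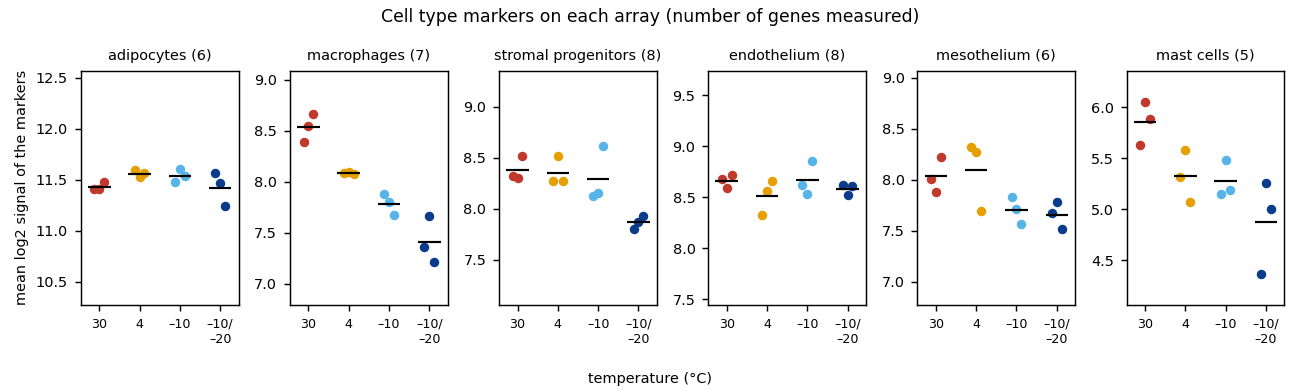
Mean log2 signal (vertical axis) of the markers of 6 cell types on each array, by temperature in °C (horizontal axis). Points are arrays, black lines are group means, and each panel spans the same range of log2 units. Macrophage markers lay between 8.39 and 8.67 with 30°C and between 7.21 and 7.66 with –10°C/–20°C, and adipocyte markers between 11.2 and 11.6 throughout.

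Pathway genes outside these names were read from 7 lists with 69 measured genes. Against 30°C, 1 rose and 1 fell with 4°C, 6 fell with –10°C, and 2 rose and 10 fell with –10°C/–20°C, beside the 11.0% of all genes that fell there. Among 11 further secreted antagonists, 2 fell with –10°C/–20°C and 9 did not pass. Chrdl1, a chordin-like antagonist of BMPs, read 10.33, 9.85, and 10.45 with 30°C, 9.66, 9.87, and 9.71 with 4°C, 9.60, 9.35, and 9.77 with –10°C, and 8.91, 8.41, and 8.65 with –10°C/–20°C. The coldest arrays were below all others, by −1.56 from 30°C (SE 0.17, adjusted p = 0.000158). Bmper, which binds BMPs and can restrain or aid them, read 7.34, 8.56, and 8.49 with 30°C, 7.20, 7.78, and 7.35 with 4°C, 6.60, 6.60, and 6.94 with –10°C, and 7.21, 6.49, and 6.48 with –10°C/–20°C. Both colder groups were below 30°C on every array, by −1.41 (adjusted p = 0.0179) and −1.40 (SE 0.31, adjusted p = 0.00916), and the first did not pass without 30°C replicate 2 or 3 (adjusted p = 0.0758 and 0.0544) or –10°C replicate 1 or 2 (adjusted p = 0.0659 and 0.0647), or with the name form as a block (adjusted p = 0.0819).

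Genes that store or release latent TGF-beta fell for 3 of 11 with –10°C/–20°C and 8 did not pass, beside 11.0% of all genes that fell (18.2% in either direction). Thbs1, a matrix protein that activates latent TGF-beta, read 10.38, 9.69, and 10.67 with 30°C, 8.47, 8.86, and 8.86 with 4°C, 8.91, 9.04, and 8.84 with –10°C, and 8.37, 8.29, and 7.61 with –10°C/–20°C. All 9 cold arrays were below those of 30°C, with differences of −1.52 (adjusted p = 0.0101, and 0.0554 without 4°C replicate 1), −1.32 (adjusted p = 0.0087), and −2.16 (SE 0.25, adjusted p = 0.000194). Bgn, a proteoglycan that binds TGF-beta, fell by 0.75 on the log2 scale with –10°C/–20°C (adjusted p = 0.00127), and Ltbp3, a latent TGF-beta binding protein, fell by 0.48 (adjusted p = 0.00947, 0.0717 under median centring, and 0.0748 with the name form as a block). Of 5 other ligands of the superfamily, among them Lefty1 (−0.22, adjusted p = 0.285) and Amh (−0.04, adjusted p = 0.89), none passed in limma. Nor did any of 9 co-receptors and decoys, among them the endothelial co-receptor Eng (0.21, adjusted p = 0.33) and Neo1 (−0.11, adjusted p = 0.564). At an unadjusted p under 0.05 against 30°C there was 1 of these 9 (with –10°C, beside 2962 of 14860 genes) and 0 of the 5.

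Inside the cell, 2 of 15 regulators of Smads rose with –10°C/–20°C and 1 fell, beside 7.19% of all genes that rose and 11.0% that fell. Pmepa1, a TGF-beta-induced inhibitor of Smad2 and Smad3, read 9.32, 9.60, and 9.43 with 30°C, 10.35, 10.29, and 10.42 with 4°C, 9.03, 9.36, and 9.67 with –10°C, and 10.42, 10.03, and 10.16 with –10°C/–20°C. Arrays of 4°C and –10°C/–20°C were above all of the other groups, which overlapped. It was 0.90 higher with 4°C (SE 0.16, adjusted p = 0.0125), −0.10 with –10°C (adjusted p = 0.84), and 0.75 higher with –10°C/–20°C (adjusted p = 0.00636), and the coldest group was 0.85 above –10°C (adjusted p = 0.00973). The call with 4°C was lost without 30°C replicate 1 or 4°C replicate 1 or 3 (adjusted p = 0.0555, 0.0566, and 0.0521). Smurf1, a ubiquitin ligase for Smads, differed by −0.42 (adjusted p = 0.0389), and Ppm1a, a Smad phosphatase, by 0.32 (adjusted p = 0.0489), and these passed in 11 and 8 of 22 alternatives and not with the name form as a block (adjusted p = 0.0864 and 0.285).

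Genes known to be induced by each branch were read in 2 lists, and the difference between the lists was not tested. Of 7 genes of BMP-induced transcription, 6 were above background on all arrays, and none passed in limma with any cold group. With –10°C/–20°C 18.2% of all genes passed, and a list of 7 is too short to differ from that share. At an unadjusted p under 0.05 there was 1, with 4°C, beside 2068 of 14860 genes. Id2 and Id3, the most strongly read of the 7, differed by −0.47 (adjusted p = 0.441) and −0.34 (adjusted p = 0.418) with –10°C/–20°C. The list median was 0.00. Of 11 genes known as TGF-beta-induced, 4 fell with –10°C/–20°C, beside 11.0% of all genes, and the median was −0.72. They were the collagen genes Col3a1, Col1a1, and Col1a2, by −2.15, −2.08, and −1.79 (adjusted p = 0.000159, 0.000423, and 0.000125), and the protease inhibitor Timp1, by −1.23 (adjusted p = 0.00243). Timp1 was below background on every array with –10°C/–20°C, at least 1.80-fold lower, as the mean of 30°C over the background level. Stromal cells and other cells express these collagens. Of the 8 stromal markers given above, 2 fell in the same group, and their median log2 difference was −0.41. The part of stromal cells in the collagen decreases was not tested. The smooth muscle genes Acta2 and Tagln of the same list differed by 0.15 (adjusted p = 0.859) and 0.30 (adjusted p = 0.654).

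**Figure D5:**
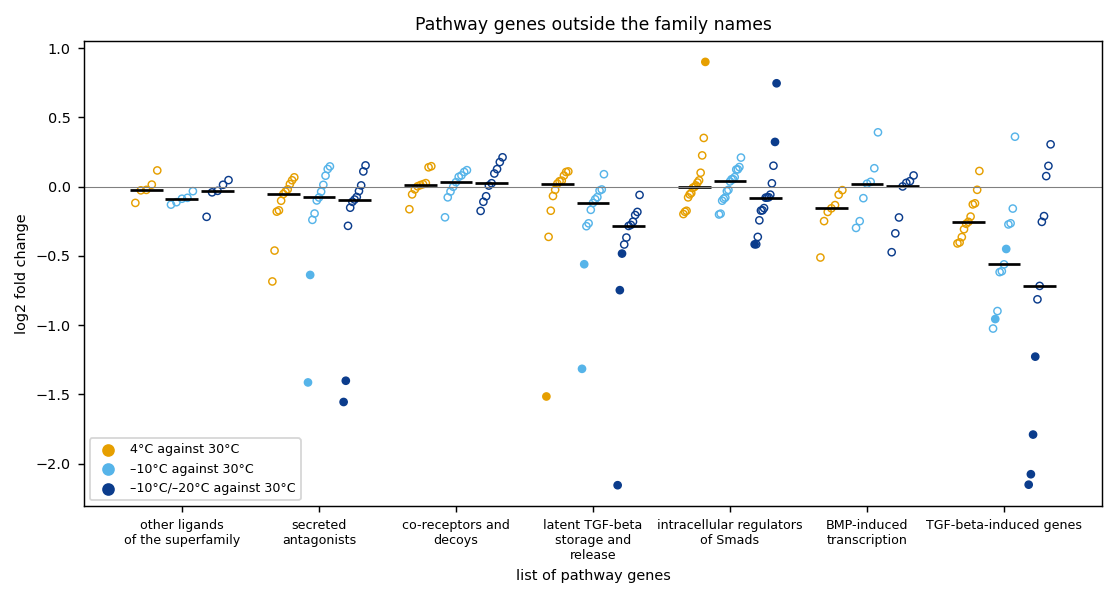
Log2 fold change against 30°C (vertical axis) of 69 pathway genes outside the family names, by list (horizontal axis), in the 3 cold groups. Points are genes, filled where the adjusted p was under 0.05, and black lines are list medians. The TGF-beta-induced list has a median of −0.72 with –10°C/–20°C, and the BMP-induced list a median of 0.00.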

How the data were processed

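Arrays of eWAT RNA from 12 samples in 4 groups were used. Values were deposited by the authors as log2 signals. The submitters' processing notes name RMA and Affymetrix Expression Console, and RMA corrects background, normalizes between arrays, and summarizes probes. Neither their versions nor a genome build is given in the sources used here. Of 23332 probe sets, 14996 carried 1 symbol in the platform annotation, 1019 several, and 7317 none. Only the first kind was kept, with the brightest probe set of each gene, and 1 entry fitting the family names was left out because it had several symbols. All 48 members matched RefSeq (GRCm38.p6) by gene ID, and promoter sequences are from that table.

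Each gene was fitted over all 4 groups with limma 3.58.1 (lmFit, eBayes) in R 4.3.3, with a moderated F-test, and adjusted by Benjamini-Hochberg over 14860 genes, which gave every adjusted p in the text unless another test is named. The fit was tested on simulated data. The number of arrays limits the precision.

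The members and all gene lists were chosen with earlier results of these data known. Array values were given for members past the F-test or a contrast, and in each other list up to 4 genes past the test with the largest change, or the 2 with the highest mean where none passed, were named. Tgfbr2, Bmpr2, Acta2, Tagln, and other genes that did not pass were named for their role. Alternatives were the methods' t-test or ANOVA with adjustment, a trend and robust fit, a filter at 3 arrays above background, repeated quantile normalization, median centring, only the arrays compared, the mean of all probe sets, arrayWeights, blocks for replicate number or array name form, and each array left out. Array subsets by name form were added after the data were seen.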

Additional observations from a re-analysis of the deposited data

How the results depend on the processing

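Over 22 alternatives, no called difference of a member changed its direction, nor did one of a pathway gene named by its change or mean value. The other pathway genes were not checked in this way. The number of arrays and the signal over background limit what could be detected, since 14 members were below background on at least 1 array. Median centring raised the median of all genes with –10°C/–20°C from −0.03 to 0.13, and with it the split of calls turned from 1068 higher and 1639 lower to 1905 higher and 1004 lower (1487 and 1488 with repeated quantile normalization).

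Against 30°C, members called numbered 2 in the 4°C group, 4 in the –10°C group, and 12 in the coldest, and there were 4 and 6 for the coldest group against –10°C and 4°C, and 11 by the F-test. With the methods' t-test and adjustment they were 0, 0, 2, 0, and 0, and 6 with ANOVA. Of all 14860 genes, 0, 19, 593, 4, and 88 passed the t-test, and 1918 passed ANOVA. With the name form as a block, 2, 7, 3, and 6 were called for –10°C, for the coldest group, for the coldest group against 4°C, and by the F-test. The same fits called 314, 1585, 705, and 1501 of all genes. Repeated quantile normalization and median centring each left 2 against –10°C and 3 against 4°C. They called 897 and 824 of all genes against –10°C, and 1375 and 1301 against 4°C. With only the arrays compared, 0 were called with 4°C and 0 between –10°C/–20°C and –10°C, beside 94 and 658 of all genes. With arrayWeights, whose fit stopped before convergence, 6 (5 lower and Acvr1b higher) and 9 were called with 4°C and –10°C. That fit called 1873 and 2597 of all genes. Among the 8 arrays of 1 name form, 30°C and 4°C have 1 array each. Members and all genes alike were called less often there. A loss of member calls cannot be told there from a general loss of calls. Among the other 4 arrays, 0 members and 0 of 14860 genes were called with 4°C. At an unadjusted p under 0.05 limma gave 4 members among these 4 arrays with 4°C, beside 2369 of 14860 genes. Groups of 1 array were assumed to vary like the others.

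Pathway genes called were 2, 6, and 12 against 30°C, and 0, 0, and 2 with the t-test. They were 1 with 4°C when only the arrays compared were used, 6 with arrayWeights, and 0 in either array subset. With –10°C they were 1 with the form as a block and 0 among the 8 arrays.

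Leaving out 1 array gave 1 to 3, 3 to 5, and 8 to 14 members against 30°C, with 8 without 30°C replicate 3. Between –10°C and 4°C it gave 0 to 0, against –10°C 0 to 4, with 0 without –10°C/–20°C replicate 2, and against 4°C 4 to 6. The F-test gave 6 to 10, and pathway genes 0 to 3, 1 to 7, and 10 to 12.

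The labels do not say what a replicate number marks. Deviations from the group means correlated at −0.386 to 0.54 over 18 same-numbered pairs (median 0.2, and 0.171 to 0.453 among arrays numbered 1). The median over 36 other pairs was −0.158, and 8 of 12 arrays correlated best with their own number. Deviations within a group cancel out, so the values of same-numbered and other pairs are not independent. With the replicate number as a block, members called were 2, 5, and 13 against 30°C, 0 between –10°C and 4°C, 4 and 7 for the coldest group against –10°C and 4°C, and 11 by the F-test.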

Other observations

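Among genes known to be induced by TGF-beta, 3 that are not among those with the largest change had other patterns, and they were chosen after their values were seen. Cdkn2b, an inhibitor of the cell cycle, read 6.47, 6.22, and 6.57 with 30°C, 6.52, 6.28, and 6.40 with 4°C, 6.96, 6.71, and 6.67 with –10°C, and 6.10, 6.14, and 6.26 with –10°C/–20°C. It was highest with –10°C and differed among the groups by the F-test of limma (adjusted p = 0.0192), with −0.62 between –10°C/–20°C and –10°C (adjusted p = 0.0111). Its differences from 30°C did not pass (0.36, adjusted p = 0.091, and −0.25, adjusted p = 0.176). Tgfbi, a matrix protein, differed by −0.45 with –10°C (adjusted p = 0.019) and by −0.21 with –10°C/–20°C (adjusted p = 0.192). With the name form as a block, Thbs1 was the 1 pathway gene called with –10°C, so the Tgfbi call was lost. Ccn2, a matricellular protein, spread from 6.97 to 8.74 with –10°C and from 8.78 to 9.09 with 30°C, and its difference of −1.03 did not pass (adjusted p = 0.149).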
